A study of Rattus norvegicus with 6 samples.

Results

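Cholesterol and fatty acid synthesis genes were followed in whole-organ cultures of rat pituitary, the gland below the brain that makes growth hormone, prolactin and the gonadotropins. The set was a list of 32 genes in 3 arms: 19 of the sterol arm, 8 of the fatty acid arm and 5 that control both. A gene was represented by its array probe sets whose annotation gave that symbol alone. This left 31 of the 32 genes with 53 probe sets, out of 14217 named genes and 31042 probe sets on the array, and each gene was read from its probe set with the highest mean value. Hmgcs1 was not analysed here. The 6 samples were 3 control cultures and 3 cultures given 10 nM GnRH (gonadotropin-releasing hormone), the hypothalamic peptide that acts on the gonadotropes of the pituitary. The comparison sets the mRNA levels of the gland with the peptide against those without it. The sources used here do not give strain, age, sex or length of treatment. No label says that the samples of a group came from separate cultures or animals, and the GnRH descriptions carry a single shared number. The spread behind each p-value is only that among these samples, and may be technical.

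Animal cells build cholesterol from acetyl-CoA through mevalonate, squalene and lanosterol, and build fatty acids from the same precursor. Transcription of both arms is driven by the SREBP factors, encoded by Srebf1 and Srebf2. These are held in the endoplasmic reticulum by the Insig proteins and escorted by Scap to the Golgi for cleavage when sterol is scarce. Insig1 and most enzymes of the sterol arm are themselves SREBP targets, so their mRNAs are commonly read as a gauge of that pathway. In the pituitary, cholesterol and phospholipid are also needed for the membranes of secretory granules.

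All values below are log2 values of the normalised array intensity, and a difference is the GnRH mean less the control mean (3 arrays each), tested with limma (a linear model per probe set that shares variance information across probe sets). The median intensity of an array on the linear scale ran from 64.5 to 67.0. The hormone genes that define the pituitary (Gh1, Prl, Pomc, Tshb, Lhb, Fshb and Cga) were all measured, and all 7 lay above the median probe set. Control 3 stood apart from the other controls. Across probe sets, which are no independent replicates, its log2 values had a Pearson correlation of 0.983 and 0.986 with controls 1 and 2 and of 0.988 to 0.991 with the GnRH arrays. Xist, the noncoding RNA of the inactive X chromosome, had 3.91 and 3.66 in controls 1 and 2, against 9.77 in control 3 and 9.16 to 9.73 with GnRH. The treatment thus partly coincides with this Xist division over all arrays. Without control 3 it coincides wholly, and a difference with GnRH cannot be told apart from one of the division. Differences of the 31 genes that turned sign or moved by over 1.5 times without control 3, or against control 3 alone, are therefore also given under that choice. The sign turned in 4 of the 31 genes without control 3 and in 7 against control 3 alone.

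Across the 31 genes, 1 fell, 0 rose and 30 did not pass the test. The gene that fell was Msmo1, the sterol C4-methyl oxidase that acts after lanosterol. Insig1, the sterol-sensing brake on SREBP, and Fads1, the delta-5 fatty acid desaturase, had the next smallest p-values and were lower by similar amounts without passing. Among all genes read from 1 probe set each, 0.0492% were lower and 0.556% higher at an adjusted p under 0.05 (limma, Benjamini-Hochberg over all probe sets), and 0.464% of all probe sets passed in either direction. At an unadjusted p under 0.05, 6 of the 31 genes were lower and 3 higher, against 5.17% and 8.04% of all genes. In 7 of the 31 the GnRH values all lay below the controls, and in 2 they all lay above, against 8.62% and 8.65% of all genes. The difference was below 0 in 23 of the 31, or 74.2%, against 52.4% of all genes. Its median was -0.094, against -0.0089 over all genes. This lean is a description, since a list of genes under shared control does not give independent values.

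**Figure D1:**
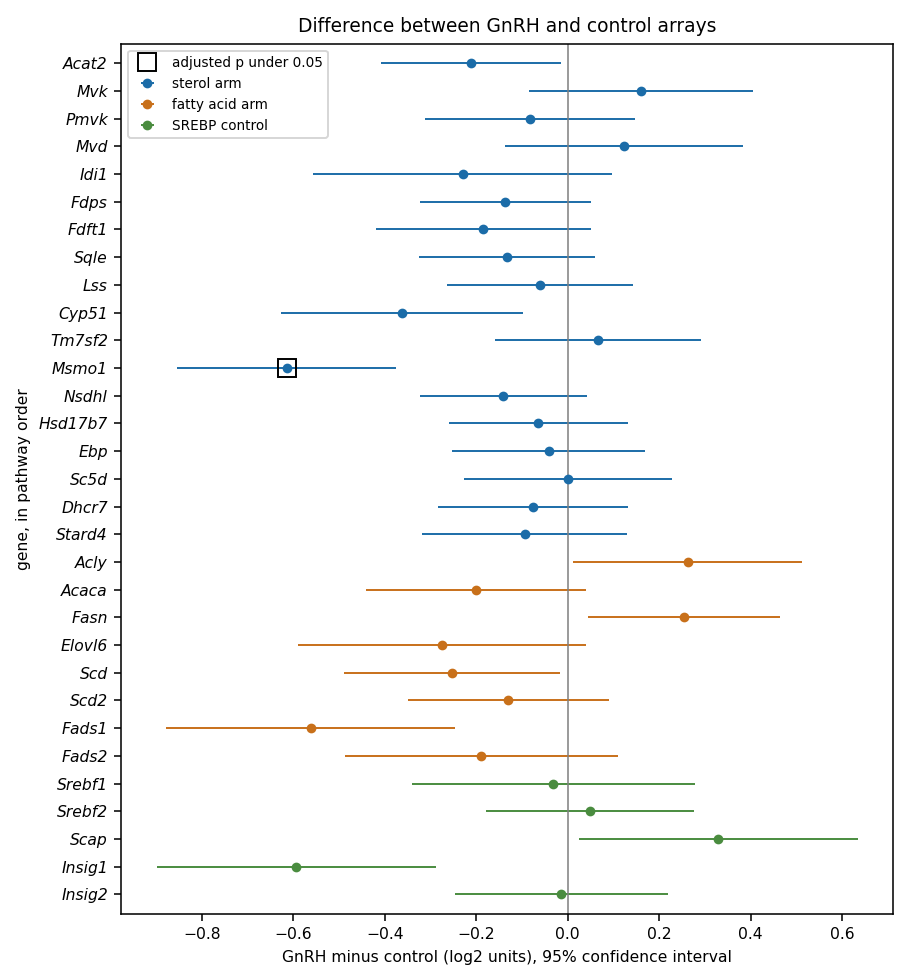
Difference between the means of the 3 GnRH and the 3 control arrays (log2 units, x axis) for each of the 31 genes in pathway order (y axis), with the 95% confidence interval of the limma fit. Most points lie left of 0, and only Msmo1, boxed at -0.61, passed an adjusted p of 0.05.

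The SREBP control genes gave no call among 5. Insig1 mRNA had 9.51, 9.79 and 9.40 in controls and 9.20, 8.72 and 8.99 with GnRH. All 3 GnRH values lay below all 3 controls, although GnRH 1 was close to control 3. The difference was -0.59 ± 0.14 (SE, n = 3 per group; 95% interval -0.90 to -0.29), a fold of 0.663, and did not pass (limma adjusted p = 0.113). It passed without control 3, at -0.68 (limma adjusted p = 0.0170), and against control 3 alone it was -0.43 without passing (limma adjusted p = 0.375). Its paralog Insig2, which also retains the SREBP-Scap complex but is not known as a strong SREBP target, had 7.53, 7.45 and 7.81 against 7.57, 7.56 and 7.61. The Insig2 groups overlapped, with a difference of -0.014 ± 0.11 (95% interval -0.25 to 0.22). It was 0.092 without control 3 and -0.23 against control 3 alone.

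Both SREBP genes overlapped between groups. Srebf1, whose product mainly serves fatty acid synthesis, had 8.11, 7.78 and 7.52 in controls and 7.86, 7.82 and 7.63 with GnRH, a difference of -0.031 ± 0.14. The controls of Srebf1 spread more widely than the GnRH arrays, and its direction depended on them: -0.17 without control 3, 0.12 without control 1 and 0.25 against control 3 alone. Srebf2, whose product mainly serves sterol synthesis, had 8.23, 8.41 and 8.05 against 8.27, 8.29 and 8.26, a difference of 0.048 ± 0.10 that was -0.043 without control 3 and 0.23 against control 3 alone. Scap, the escort protein, had 7.52, 7.51 and 6.98 against 7.73, 7.61 and 7.66. The GnRH values of Scap lay above all controls, and control 3 was the low one. The Scap difference was 0.33 ± 0.14 and did not pass (limma adjusted p = 0.374). Against control 3 alone it was 0.68 (limma adjusted p = 0.0325), and without control 3 it was 0.15 (limma adjusted p = 0.292).

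The early steps of the sterol arm, from acetoacetyl-CoA to farnesyl diphosphate, showed no call in either direction among 6 measured genes. Acat2, the cytosolic thiolase of the first step, had 6.78, 6.71 and 6.59 in controls and 6.45, 6.45 and 6.54 with GnRH. Its GnRH values lay below the controls by a small margin, and the difference of -0.21 ± 0.089 did not pass (limma adjusted p = 0.376). It was -0.26 without control 3 and -0.11 against control 3 alone. Fdps, which makes farnesyl diphosphate, was tight in both groups, with 8.68, 8.79 and 8.72 against 8.60, 8.54 and 8.65. The groups of Fdps did not overlap either, with a difference of -0.14 ± 0.085 (limma adjusted p = 0.546). Idi1, the isopentenyl diphosphate isomerase, had 6.91, 7.14 and 6.55 against 6.69, 6.78 and 6.44. Control 3 of Idi1 lay among the GnRH arrays, and its difference was -0.23 ± 0.15 over all arrays, -0.39 without control 3 and 0.086 against control 3 alone. Of the kinases and the decarboxylase that lie between, mevalonate kinase (Mvk) and mevalonate diphosphate decarboxylase (Mvd) lay higher, at 0.16 ± 0.11 and 0.12 ± 0.12, and phosphomevalonate kinase (Pmvk) lower, at -0.083 ± 0.10. The groups of these genes overlapped. Without control 3 the differences of Mvk and Mvd were 0.072 and 0.033, and against control 3 alone 0.34 and 0.30.

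The squalene steps lay slightly lower in all 3 genes. Fdft1, squalene synthase, had 7.25, 7.57 and 7.30 in controls and 7.09, 7.25 and 7.22 with GnRH, a difference of -0.18 ± 0.11 (limma adjusted p = 0.512), or -0.11 against control 3 alone. Sqle, the squalene epoxidase that is a rate-limiting step, had 7.38, 7.52 and 7.48 against 7.28, 7.32 and 7.39, a difference of -0.13 ± 0.087. The highest GnRH value of Sqle just exceeded the lowest control. Lss, lanosterol synthase, had a difference of -0.061 ± 0.092, smaller than its SE, which was -0.11 without control 3 and 0.031 against control 3 alone.

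The one call of the set lay in the steps after lanosterol. Msmo1 had 8.84, 8.97 and 8.66 in controls and 8.35, 8.09 and 8.18 with GnRH. The GnRH arrays lay below every control, and control 3 was again the lowest control. Msmo1 fell by 0.61 ± 0.11 on the log2 scale (SE, n = 3 per group; 95% interval -0.85 to -0.37), to 0.653 of the control level, with limma adjusted p = 0.0445. The call was lost when control 1 (limma adjusted p = 0.129), control 2 (0.171), GnRH 1 (0.0858), GnRH 2 (0.222) or GnRH 3 (0.135) was left out. It held without control 3, at -0.70 (limma adjusted p = 0.00336), a fit in which the treatment and the Xist division coincide. Against control 3 alone the difference was -0.45 (limma adjusted p = 0.198). Over all alternatives the Msmo1 difference ran from -0.70 to -0.45. It missed the threshold with repeated quantile normalization, cyclic loess, a pseudocount of 16 and the mean of all probe sets per gene (limma adjusted p from 0.0509 to 0.0860).

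The other enzymes of the steps after lanosterol gave smaller differences. Cyp51, the lanosterol 14-alpha-demethylase that acts earlier than Msmo1, had 7.65, 7.68 and 7.24 in controls and 7.13, 7.18 and 7.16 with GnRH. The GnRH arrays of Cyp51 were nearly equal and control 3 lay next to them. The difference was -0.36 ± 0.12 over all arrays (limma adjusted p = 0.264), -0.51 without control 3 (limma adjusted p = 0.00667) and -0.080 against control 3 alone (limma adjusted p = 0.870). Nsdhl, the dehydrogenase that follows Msmo1 in removing the C4 methyl groups, had 6.56, 6.62 and 6.55 against 6.49, 6.40 and 6.41. The groups of Nsdhl did not overlap but lay close together, at -0.14 ± 0.083 (limma adjusted p = 0.522). The other enzymes of this stretch overlapped between groups: the ketoreductase Hsd17b7 at -0.064, the isomerase Ebp at -0.041, the C14 reductase Tm7sf2 at 0.066, the C5 desaturase Sc5d at 0.00081 and Dhcr7, which makes cholesterol in the last step, at -0.076. Against control 3 alone these were 0.0072, 0.022, 0.21, 0.11 and -0.14 in the same order, and without control 3 they were -0.10, -0.073, -0.0061, -0.054 and -0.042. No direction held throughout for the first 4 of them. Stard4, a sterol carrier protein that is not an enzyme of synthesis, had -0.094 ± 0.10, or -0.044 without control 3 and -0.20 against control 3 alone.

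**Figure D2:**
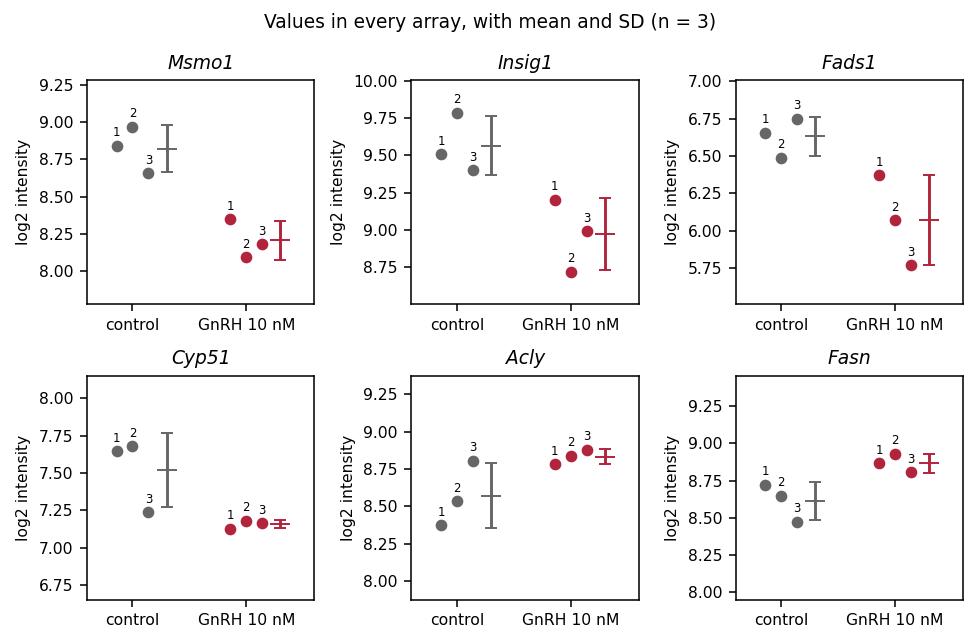
Log2 intensity (y axis) of 6 genes in every array, as points numbered by sample within the control and GnRH groups (x axis), with the mean and SD of each group (n = 3) beside them. Msmo1, Insig1 and Fads1 separate all 3 GnRH arrays from all 3 controls, whereas control 3 of Cyp51 (7.24) and of Acly (8.80) lies beside the GnRH arrays.

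The fatty acid arm held differences in both directions and no call among 8 genes. Fads1, which makes arachidonic acid from its precursor, had 6.66, 6.49 and 6.75 in controls and 6.37, 6.07 and 5.77 with GnRH. All GnRH values of Fads1 lay below the controls, with more spread among them than among the controls. The difference was -0.56 ± 0.14 (95% interval -0.88 to -0.25), a fold of 0.677, and did not pass (limma adjusted p = 0.143). Here control 3 was the highest control, and the difference was -0.68 against it alone and -0.50 without it. Fads2, the delta-6 desaturase that acts earlier in the same route, overlapped between groups, at -0.19 ± 0.13. It was -0.34 without control 3 and 0.11 against control 3 alone.

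Fasn and Acly lay higher with GnRH, without passing. Fasn, the fatty acid synthase, had 8.72, 8.65 and 8.47 in controls and 8.87, 8.93 and 8.80 with GnRH. The GnRH arrays of Fasn lay above every control, by 0.25 ± 0.095 on average (limma adjusted p = 0.318), by 0.18 without control 3 and by 0.39 against control 3 alone. Acly, the ATP citrate lyase that supplies acetyl-CoA to both arms, had 8.37, 8.53 and 8.80 against 8.78, 8.84 and 8.88. Control 3 of Acly fell among the GnRH arrays. The Acly difference was 0.26 ± 0.11 over all arrays (limma adjusted p = 0.384), 0.38 without control 3 (limma adjusted p = 0.0315) and 0.029 against control 3 alone.

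The remaining 4 genes of the arm lay lower without passing, and in each control 3 was the control nearest to the GnRH mean. Acaca, the acetyl-CoA carboxylase that commits carbon to fatty acids, had 7.60, 7.36 and 7.19 against 7.16, 7.21 and 7.17, a difference of -0.20 ± 0.11 (-0.29 without control 3 and -0.011 against it alone). Elovl6, the elongase of palmitate, had 7.24, 7.09 and 6.73 against 6.80, 6.52 and 6.90, a difference of -0.27 ± 0.14 (-0.42 without control 3 and 0.013 against it alone). Only the GnRH values of Acaca were tight, and both genes overlapped. Scd, a stearoyl-CoA desaturase, had 5.38, 5.39 and 5.08 against 4.95, 5.11 and 5.03, a difference of -0.25 ± 0.11. It passed without control 3, at -0.36 (limma adjusted p = 0.0372), and was -0.046 against control 3 alone. The mean level of this Scd probe set lay below that of the median probe set. Scd2, another stearoyl-CoA desaturase, had -0.13 ± 0.099 (-0.19 without control 3 and -0.017 against it alone).

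The sequences before the transcription start are shown for the 3 genes with the smallest p-values that have 1 promoter window in RefSeq's GRCr8 table. They carry motifs that occur in SREBP target promoters and also in many other promoters. Each is written 5′ to 3′ on the strand of the gene and stops before the first transcribed base. Capitals mark every match to the NF-Y box CCAAT or the GC box GGGCGG, the binding motifs of the SREBP partner factors NF-Y and Sp1, on either strand. The stretch of Msmo1 lies at chr16:29746863-29747112 on the plus strand, that of Insig1 at chr4:8057813-8058019 on the minus strand and that of Fads1 at chr1:216252442-216252604 on the plus strand.
Msmo1: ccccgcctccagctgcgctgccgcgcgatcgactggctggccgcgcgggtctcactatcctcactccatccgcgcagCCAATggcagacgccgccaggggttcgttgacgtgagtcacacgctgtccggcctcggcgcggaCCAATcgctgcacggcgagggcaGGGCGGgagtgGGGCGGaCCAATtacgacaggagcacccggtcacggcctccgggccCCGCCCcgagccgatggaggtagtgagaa
Insig1: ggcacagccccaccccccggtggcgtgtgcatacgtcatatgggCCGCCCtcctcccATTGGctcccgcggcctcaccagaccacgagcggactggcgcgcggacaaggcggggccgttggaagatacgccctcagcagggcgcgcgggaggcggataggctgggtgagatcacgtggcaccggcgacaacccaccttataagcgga
Fads1: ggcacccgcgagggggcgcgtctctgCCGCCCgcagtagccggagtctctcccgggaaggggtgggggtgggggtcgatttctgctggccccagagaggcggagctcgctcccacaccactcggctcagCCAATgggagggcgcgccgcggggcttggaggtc

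The Msmo1 stretch held 3 NF-Y boxes and 3 GC boxes, and the Insig1 and Fads1 stretches held 1 of each. The stretches are of 250, 207 and 163 bases, because each ends before the first recorded start of its gene, so these counts cannot be compared. Of the 31 genes, 24 had a window of 300 bases (250 before the start to 50 after it) in that table. An NF-Y box on either strand was present in 18 of these 24 genes, or 75%, against 36.8% of the windows of all genes named on the array and 37.5% of all windows. It was present in 11 of 14 genes of the sterol arm, 3 of 5 of the fatty acid arm and 4 of 5 SREBP control genes. A GC box was present in 19 of 24, or 79.2%, against 55.7% of the windows of genes named on the array and 33.1% of all windows. The core of the sterol response element, TCACNCCAC (N, any base), was present on either strand in 0 of 24 and in 1.07% of the windows of genes named on the array. These matches are a description of the letters in the windows, and no binding was measured. Genes with the motif lay at both ends of the differences, since Msmo1 (-0.61), Insig1 (-0.59), Acly (0.26) and Mvk (0.16) all held an NF-Y box.

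Array by array, the lower medians of the sterol and fatty acid arms were shared by control 3. With each gene set to the mean of its 3 controls, the sterol arm had a median of 0.021 in control 1, 0.065 in control 2 and -0.084 in control 3. In GnRH 1, 2 and 3 it was -0.10, -0.12 and -0.094. In this median control 3 lay close to the GnRH arrays and apart from the other controls. Gene by gene it did not: the median sterol difference was -0.089 against control 3 alone and -0.088 over all arrays. For the fatty acid arm the control medians were 0.10, 0.032 and -0.16, and the GnRH medians -0.19, -0.17 and -0.22. The SREBP control genes had 0.0028 and 0.17, then -0.18 in control 3 and 0.043, 0.017 and 0.017 with GnRH, so that here control 3 was the only array below 0. The same median over all genes stayed between -0.013 and 0.0020 in every array. Control 3 lay below both other controls in 22 of the 31 genes, against 6184 of all 14217 genes.

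**Figure D3:**
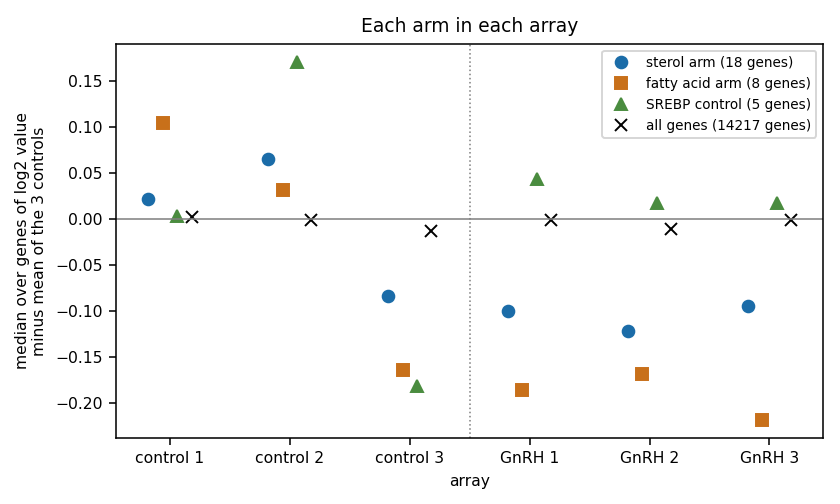
Median over the genes of each arm, and over all named genes, of the log2 value minus the mean of the 3 controls (y axis), in each of the 6 arrays (x axis). The sterol and fatty acid arms lie below 0 in control 3 and in all 3 GnRH arrays, and above 0 in controls 1 and 2.

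The medians of the fatty acid arm and the SREBP control genes moved with the choice of controls, and that of the sterol arm moved by less than its spread between replicates. Over all arrays the median was -0.088 in the sterol arm, with 14 of 18 genes below 0. It was -0.19 in the fatty acid arm, with 6 of 8 below 0, and -0.014 among the SREBP control genes, with 3 of 5 below 0. Against control 3 alone, an alternative chosen after seeing the data that assumes the lone array varies like the others, these medians were -0.089, 0.0012 and 0.23, and the numbers below 0 were 10 of 18, 4 of 8 and 2 of 5. Without control 3 they were -0.10, -0.32 and -0.043, and 5 genes passed the test: Msmo1, Insig1, Cyp51 and Scd lower and Acly higher. In that fit 2.2% of all genes passed lower and 6.25% higher. Against control 3 alone, where 0.211% of all genes passed lower and 1.06% higher, Scap was the 1 gene of the set that passed. The GnRH arrays and control 3 shared a high Xist level, whereas controls 1 and 2 had a low one. The part of this division in the results was not tested, and in the fit without control 3 it cannot be told apart from that of GnRH. In 13 of the 31 genes, Msmo1, Insig1 and Fads1 among them, all 3 GnRH arrays lay below control 3, and in 9 they all lay above it. The same share over all genes was not counted, so these counts show nothing particular to the set or to the named genes.

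**Figure D4:**
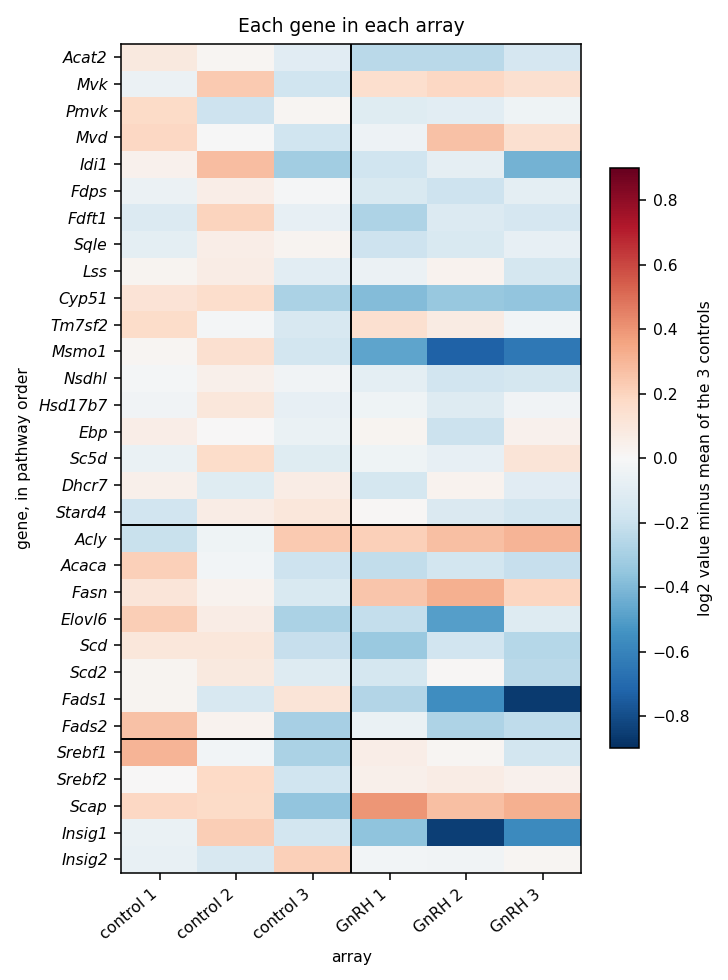
Log2 value of each of the 31 genes (rows, in pathway order; lines part the sterol arm, the fatty acid arm and the SREBP control genes) in each array (columns), as the difference from the mean of its 3 controls (colour, blue lower and red higher). Control 3 is blue in most rows, and the darkest blue lies in the GnRH arrays of Msmo1, Insig1 and Fads1.

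Where a gene had several probe sets, the size of the difference often depended on the probe set. Of 17 such genes, 11 had all their differences within 0.15 of each other and 5 had differences in both directions. Idi1 (-0.23 and -0.23) and Fasn (0.25 and 0.26) differed by 0.0033 and 0.0060 between their probe sets. The second Cyp51 probe set had 6.44, 6.63 and 6.39 against 6.55, 6.30 and 6.40, a difference of -0.071 where the brighter one gave -0.36. The second Scap probe set gave -0.12 where the brighter one gave 0.33, so that no direction can be stated for Scap. Acaca (-0.20 and 0.055) and Scd2 (-0.27 to 0.031 over 4 probe sets) were also divided. Msmo1, Insig1 and Fads1 each had 1 probe set, and their values have no such check.

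**Figure D5:**
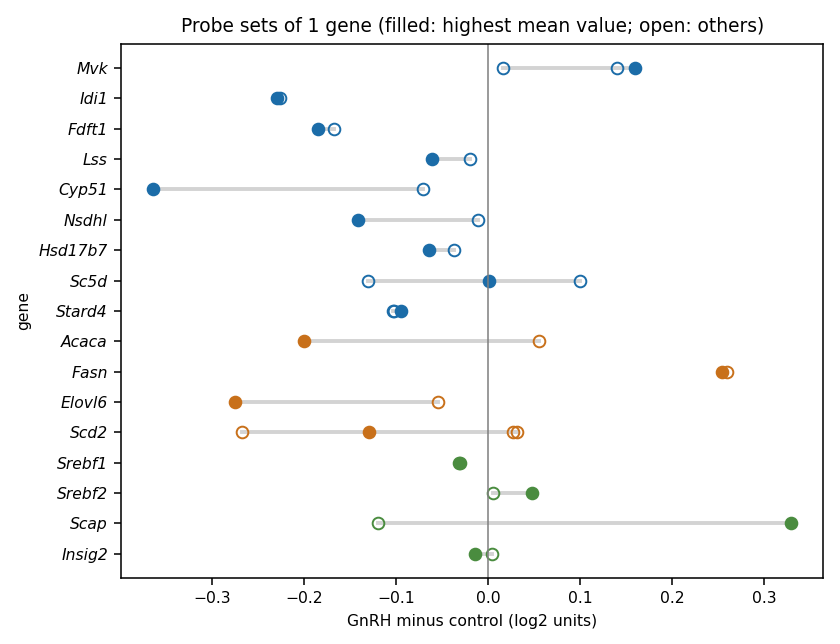
GnRH minus control (log2 units, x axis) of every probe set of the 17 genes with more than 1 (y axis), filled for the probe set with the highest mean value and open for the others. Idi1, Fasn and Srebf1 agree closely, whereas the probe sets of Scap lie at -0.12 and 0.33.

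Other genes of lipid handling, from lists chosen for their place in the pathway, gave 0 calls in either direction. This held for 4 other genes of sterol synthesis, 10 of sterol uptake and trafficking, 12 of the LXR (liver X receptor) and efflux pathway, 10 of SREBP processing, 23 of fatty acid and lipid synthesis and 14 of fatty acid oxidation, by limma adjusted p over all probe sets. At an unadjusted p under 0.05, 3 of these 73 genes were lower and 6 higher, or 4.11% and 8.22%, close to the 5.17% and 8.04% of all genes. The median difference of the lists ran from -0.065 for the LXR and efflux genes to 0.091 for the other sterol synthesis genes. Several of these medians turned sign with the choice of controls. Without control 3, and then against it alone, they were 0.12 and -0.072 for other sterol synthesis and 0.031 and -0.0024 for uptake and trafficking. They were 0.10 and -0.066 for SREBP processing and 0.090 and -0.16 for fatty acid oxidation. Those of LXR and efflux (-0.080 and -0.029) and of fatty acid and lipid synthesis (-0.032 and -0.061) stayed below 0. Acss2, the acetyl-CoA synthetase and a known SREBP target, had 7.49, 7.57 and 7.48 in controls and 7.38, 7.33 and 7.33 with GnRH. The groups of Acss2 did not overlap, and its difference was -0.17 ± 0.082 (limma adjusted p = 0.447).

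The cholesterol exporters of the LXR pathway did not pass either. Abca1 had 7.51, 7.61 and 7.70 against 6.56, 7.03 and 7.87, a difference of -0.45 ± 0.25 in which GnRH 3 lay above all controls. Abcg1 had -0.065 ± 0.085. Apod, a lipocalin that carries lipids and was named after its values were seen, had 8.03, 8.16 and 8.25 against 7.09, 7.44 and 5.74. Its GnRH values were all lower but widely spread, and the difference of -1.39 ± 0.33 did not pass (limma adjusted p = 0.127). Nr1h2, which encodes LXR-beta, and Apoe, a lipid carrier, are of the same list and were also named after their values were seen. Both lay higher without passing, at 0.35 ± 0.11 and 0.39 ± 0.16 (limma adjusted p = 0.239 and 0.358). Nr1h2 had 7.10, 7.14 and 6.83 in controls and 7.35, 7.28 and 7.49 with GnRH. Apoe had 10.11, 9.96 and 10.66 against 10.71, 10.71 and 10.50. Control 3 of Apoe thus lay among the GnRH arrays, and only controls 1 and 2 lay below them.

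Marker lists of the cell types that the organ could hold were summed on the linear scale, and their part in the results was not tested. Gnrhr, the GnRH receptor and a check that the tissue answered, had 7.85, 7.78 and 8.16 in controls and 8.78, 9.45 and 8.94 with GnRH (difference 1.12 ± 0.17, limma adjusted p = 0.0215). The 6 measured pituitary factors, Gnrhr among them, summed to 856 to 990 in controls and 1269 to 1602 with GnRH, and Nr5a1, a factor of the gonadotropes, also rose (0.54, limma adjusted p = 0.0471). The 7 hormone genes summed to 49138 to 54171 and 52440 to 55007. The summed intensity of 6 myelin and glia markers was 532 to 576 in controls and 509 to 531 with GnRH, and that of 7 macrophage and leukocyte markers was 573 to 588 and 513 to 562. Both sums were lower in all GnRH arrays, but the myelin and glia sum was nearly equal in control 3 (532) and GnRH 3 (531). Of its 6 markers, 2 lay above the median probe set, and the differences of 4 were below 0 and of 2 above. The 5 folliculostellate markers summed to 1041 to 1219 in controls and 856 to 1041 with GnRH. Their differences were below 0 in 3 and above in 2, S100b (0.15) and Sox2 (0.018). Anxa1, the highest of the 5 in every array, weighs most in this sum. It had 8.75, 8.92 and 9.55 in controls and 8.88, 8.21 and 8.71 with GnRH, so the sum shows no shared fall of the list. The 3 red blood cell markers summed to 1319 to 2922 and 1559 to 2478. Of 6 adipocyte markers and 5 steroid gland markers, 0 lay above the median probe set. The adipocyte sums were 216 to 256 in controls and 221 to 247 with GnRH, and the steroid gland sums 188 to 221 and 188 to 213. In whole-organ RNA, fewer cells of a type and less RNA per cell cannot be told apart.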

How the data were processed

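RNA from 3 control and 3 GnRH-treated pituitary cultures was hybridised to 1-colour arrays, 1 per sample. The deposited values are intensities on a linear scale, made by the authors with RMA, according to the submitters' processing notes. The sources used here give no software version or filter, and no detection calls were used. Here log2 was taken directly, with nothing added. Symbols came from the array annotation (20826 probe sets with 1 symbol, 436 with several, 9780 not listed) and were updated by gene identifier against GRCr8. GnRH and control were compared over all 31042 probe sets with limma 3.58.1 in R 4.3.3 (2-sided, no covariate, no filter), with Benjamini-Hochberg adjustment and a threshold of 0.05. The fit was tested on simulated data with independent noise and no array that stood apart. That test therefore cannot speak to the part of control 3. The number of arrays limits the precision.

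The genes, their arms, 6 lists of related genes and 8 marker lists were chosen with earlier results of these data known. All members with a probe set are named. Of related genes, Acss2, Abca1 and Abcg1 and any past the threshold were to be named, with Gnrhr and Xist as checks; other genes of that rule are not analysed here. Promoter windows came from RefSeq. Alternatives were other scalings, a filter on dim probe sets, a pseudocount, other variance models, array weights, a block for replicate number, gene means and each array left out.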

Additional observations from a re-analysis of the deposited data

How the results depend on the processing

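The count of genes of the set past the threshold (1 over all arrays) was 6 with array weights (0.298 for control 3, 0.749 for control 1 and 2.72 for control 2) and 0 with repeated quantile normalization, cyclic loess, a pseudocount of 16 or gene means. It ran from 0 to 5 with 1 array left out, 5 without control 3 and 0 without any other single array. In the 9 settings with 0, limma's unadjusted p was under 0.05 for 3 to 7 genes lower and 0 to 3 higher. The share over all genes in those settings was not counted, so these counts show nothing particular to the set. Over all probe sets the count past the threshold (144) was 93 with cyclic loess, 90 with quantile normalization, 74 with the pseudocount, 88 with gene means, 3020 with array weights, 341 at an adjusted p under 0.10 and 265 against control 3 alone, and ran from 20 to 2309 with 1 array left out (with control 1, 2 or 3 left out 69, 28 and 2309; with GnRH 1, 2 or 3 left out 51, 20 and 65). The median of the fatty acid arm ran from -0.32 to -0.10 with 1 array left out and was 0.0012 against control 3 alone, and that of the SREBP control genes was 0.23 there. In the other settings run, the arm medians moved by less than their spread between replicates. The cause of these changes was not tested. Of the 31 genes, 19 kept their sign in every setting, 12 changed it in at least 1 and 0 passed the threshold with the other sign.

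Whether the replicate numbers of the titles pair the samples could not be decided. Deviations of same-numbered samples from their group means correlated at 0.16, -0.049 and 0.16 across probe sets, and GnRH 1 correlated best with control 2 (0.18). The deviations within a group are tied to one another, because each group mean comes from few arrays. Such correlations therefore cannot exclude a pairing. With the replicate block, 215 probe sets passed, and Msmo1 remained the 1 gene of the set past the threshold.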
